A study of Mus musculus with 20 samples.

Results

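Tuft cells are rare epithelial cells of the gut that sense luminal signals with taste-like receptors and a calcium-gated cation channel. They depend on the transcription factor Pou2f3, carry a tuft of long microvilli, and release the cytokine IL-25, leukotrienes and prostaglandins, which act on type 2 immune cells of the mucosa. In the mouse colon they are also studied for Dclk1, a kinase gene that marks tuft cells and has been followed in tumor models. Here 10 genes that the field uses for these cells, Pou2f3, Avil, Dclk1, Gnat3, Trpm5, Alox5, Alox5ap, Hpgds, Il25 and Siglecf, were followed by name in the colon of 20 mice, out of 32991 annotated genes with a value. The genes were taken by name and not by a threshold on their values, with earlier results of these data known.

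All mice were male C57BL/6 mice in 4 groups of 5, each mouse gave 1 RNA library from colon tissue, and no genetic alteration was named for any group. Control mice received double distilled water by gavage for 91 days, and PZH mice received Pien Tze Huang, a traditional Chinese medicine formula, at 250 mg/kg/d for the same time. AOM/DSS mice were injected with azoxymethane (AOM), a carcinogen, at 12.5 mg/kg, were given dextran sodium sulfate (DSS), which injures the colon epithelium, at 2% in drinking water in 4 cycles, and received water by gavage. PZH + AOM/DSS mice received AOM, DSS and PZH. The comparisons asked whether PZH changes expression in the normal colon, what the AOM/DSS model of colitis-associated tumors changes, and whether PZH alters that state.

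The values were FPKM, that is fragments scaled to transcript length and library size, summed over the annotated transcripts of a gene in each mouse. Fragments given to assembled transcripts without a gene name are missing from these sums. How much each gene lost is not known, so levels can be compared between genes only roughly. Depth read from the smallest step of the values was 15.3 to 19.4 M fragments a mouse. Markers of colon epithelium were high in every group, with a summed FPKM of 3850 to 8770 for 13 genes, but Epcam, the epithelial adhesion gene, was listed at 0 in 13 of 20 mice, including all 5 Control mice. An exact 0 in these files is therefore a listed value and not a sign of an absent RNA. Control mice 17 and 50 stood apart, with 489 and 351 FPKM summed over 8 markers of stratified epithelium against 5.24 to 6.88 in the other 3 Control mice, and with the lowest goblet cell marker sums of their group (3970 and 3480 against at least 7740 FPKM). The stratified epithelium sum also differed between groups, at 4.36 to 6.89 FPKM in PZH, 26.9 to 51.7 FPKM in AOM/DSS and 13.1 to 68.4 FPKM in PZH + AOM/DSS mice. In whole tissue, fewer tuft cells and less RNA per tuft cell cannot be told apart.

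The tuft cell genes were low in whole colon. Averaged over the 20 mice, Alox5ap (5.12 FPKM), Hpgds (4.6 FPKM) and Avil (4.01 FPKM) were the highest, followed by Dclk1 (1.67 FPKM), Alox5 (1.55 FPKM) and Trpm5 (1.32 FPKM). Siglecf (0.546 FPKM), Gnat3 (0.499 FPKM) and Pou2f3 (0.248 FPKM) lay under 1 FPKM, and Il25 was near 0 (0.0301 FPKM). Most neighbours in this order were not separated mouse by mouse: Alox5ap exceeded Hpgds in 13 of 20 mice and Avil exceeded Dclk1 in 11. Trpm5 exceeded Siglecf in 19 mice and Pou2f3 exceeded Il25 in 20. The place of Trpm5 rests on its sum, of which 51.8% was a transcript that partly overlaps exons of Tssc4. Without that transcript the Trpm5 mean was 0.331 FPKM in AOM/DSS mice, below the 0.666 FPKM of Siglecf. In each of the other groups the Trpm5 mean stayed above that of Siglecf. Several members are not private to tuft cells, since Alox5 and Alox5ap are made by myeloid cells, Hpgds by mast cells and other leukocytes, and Siglecf by eosinophils.

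**Figure D1:**
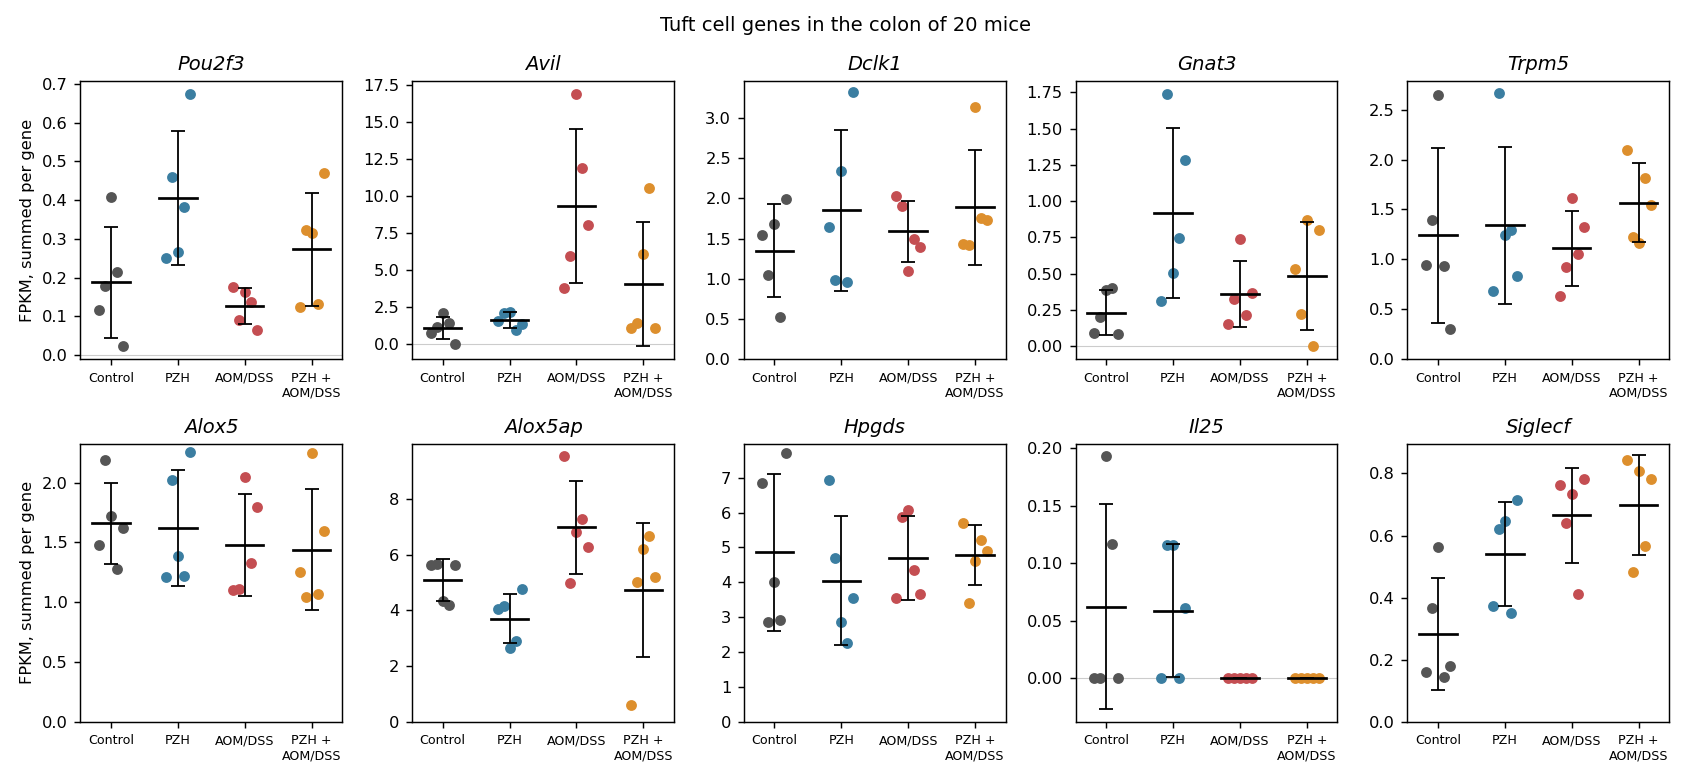
FPKM summed per gene (y axis, linear, a separate scale for each gene) for the 10 tuft cell genes in each of the 20 mice, by group (x axis). Points are mice and black lines and bars are the mean ± SD (n = 5). Avil was at 3.78 to 16.9 FPKM in AOM/DSS mice and at 0 to 2.06 FPKM in Control mice.

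Between AOM/DSS and Control mice, 7 of the 10 genes passed the filter, which asked for 0.5 FPKM or more in 5 or more of the 10 mice. Avil and Siglecf rose at an adjusted P under 0.05 in limma, adjusted over all 15812 genes tested, and no member fell. Of all genes tested, 16.4% rose, 7.23% fell and 23.6% changed in either direction by this rule, so a call was common in this comparison. The median log2 fold change of the 7 genes was 0.16, beside 0.09 over all genes tested.

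Avil encodes advillin, an actin-binding protein of the villin family found in tuft cell microvilli and in sensory neurons. It lies on chromosome 10 of GRCm38 from 127000709 to 127020994 (ENSMUSG00000025432.11). Control mice 17, 37, 41, 48 and 50 had 0.734, 1.14, 2.06, 1.42 and 0 FPKM. AOM/DSS mice 23, 30, 33, 44 and 52 had 3.78, 5.94, 16.9, 11.9 and 8.03 FPKM. The groups did not overlap, and mouse 33 was the highest of all 20 mice. How many of all genes were separated in this way was not counted. The means were 9.31 ± 5.19 and 1.07 ± 0.768 FPKM (SD, n = 5 each), a ratio of 8.7, and the log2 fold change of FPKM + 1 was 2.26 (SE 0.38, limma adjusted p = 0.00211). On this scale Avil also met the rule of a fold change above 2 with an unadjusted P under 0.05, as did 7.71% of all genes tested. The log2 scale with 1 FPKM added understates ratios of low genes. Without Control mouse 50, which was listed at 0, the log2 fold change was 2.02 (limma adjusted p = 0.00455), and without Control mice 17 and 50 it was 1.89 (limma adjusted p = 0.0138).

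Most of the Avil signal came from the protein-coding transcripts Avil-201 (64.8% of the summed FPKM) and Avil-203 (33.7%). Avil-201 was at 2.96 to 10.1 FPKM in AOM/DSS mice and at 0 to 1.42 FPKM in Control mice, again without overlap. Mouse 33 differed from the other AOM/DSS mice in its split, with 13.5 FPKM of Avil-203 and 2.96 FPKM of Avil-201. Both transcripts share 165 exonic bases with Tsfm on the opposite strand, and no source used here says that the counting used strand. Tsfm was at 18.4 ± 3.35 FPKM in AOM/DSS and 19.2 ± 3.35 FPKM in Control mice (SD, n = 5 each), a log2 fold change of −0.07 (SE 0.16, limma adjusted p = 0.804).

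**Figure D2:**
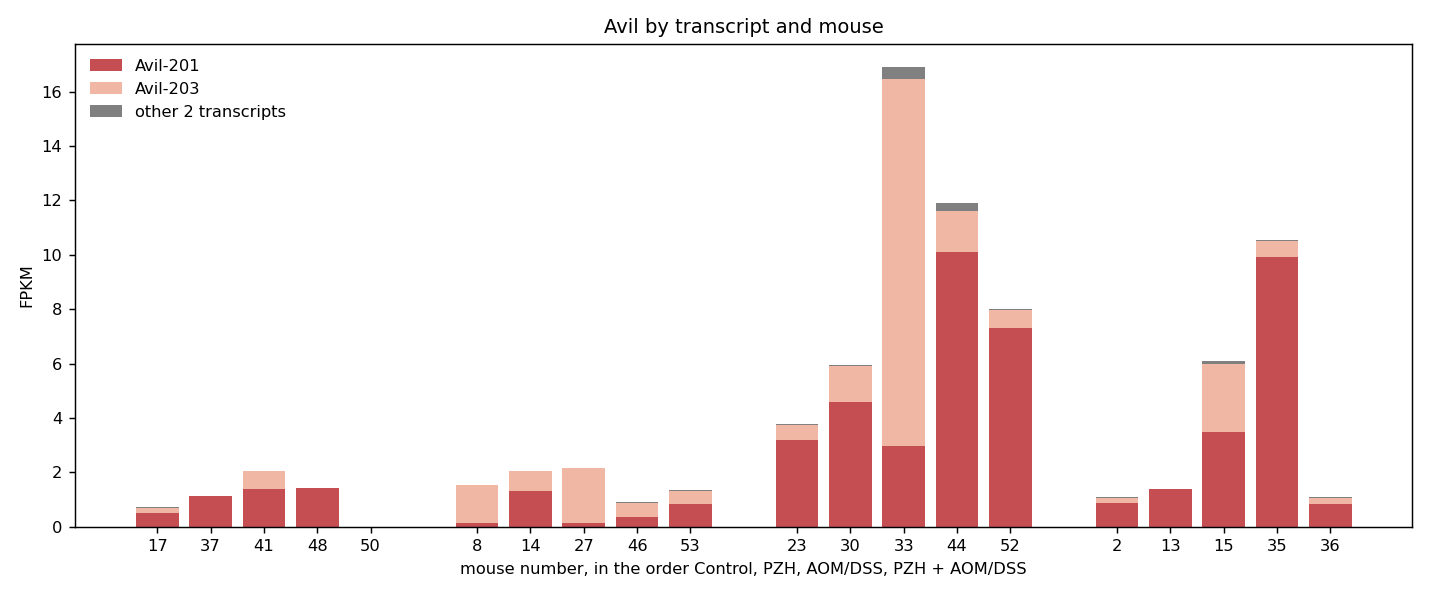
FPKM of Avil by transcript (y axis, stacked bars) in each mouse (x axis, mouse number, the 4 groups in the order given). Avil-201 made up most of the value in 4 of the 5 AOM/DSS mice, while mouse 33 had 13.5 of its 16.9 FPKM in Avil-203.

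Siglecf encodes a sialic acid-binding receptor of eosinophils that tuft cells also express (chromosome 7, 43351341 to 43359531). It was at 0.16, 0.367, 0.562, 0.143 and 0.18 FPKM in Control mice 17, 37, 41, 48 and 50, and at 0.762, 0.641, 0.733, 0.41 and 0.783 FPKM in AOM/DSS mice 23, 30, 33, 44 and 52. All AOM/DSS mice but mouse 44 lay above the highest Control mouse, mouse 41. The means were 0.666 ± 0.153 and 0.283 ± 0.18 FPKM (SD, n = 5 each), a ratio of 2.36, and the log2 fold change was 0.38 (SE 0.12, limma adjusted p = 0.0351). With a pseudocount of 0.1 FPKM in place of 1 it was 1.09 (limma adjusted p = 0.0361), above 2-fold as well. By transcript, Siglecf-203 was at 0.358 FPKM in AOM/DSS and 0.251 FPKM in Control mice on average. Siglecf-201 made up 41.7% of the AOM/DSS sum but was above 0 in only 2 of the 20 mice, both AOM/DSS mice. Siglecf passed the filter mainly through the AOM/DSS mice. Its call was lost without Control mice 17 and 50 (0.30, adjusted p = 0.16), and in the 10 runs that left out 1 mouse it was called in 2, missed the threshold in 3 (without Control mouse 17, 48 or 50) and fell under the filter in 5 (without Control mouse 41 or AOM/DSS mouse 23, 30, 33 or 52). Among the eosinophil markers, Prg2 rose from 0 to 1.11 FPKM in Control mice to 0.135 to 4.27 FPKM in AOM/DSS mice (limma adjusted p = 0.0186) and Cd300lb from 0.478 ± 0.144 to 1.7 ± 0.256 FPKM (SD, n = 5 each; limma adjusted p = 3.76e-04), while the third one tested, Ear2, was at 0.456 ± 0.199 in AOM/DSS and 0.72 ± 0.339 FPKM in Control mice (SD, n = 5 each; limma adjusted p = 0.289). The sum of the 7 listed eosinophil markers was 3.16 to 7.1 FPKM in AOM/DSS and 0.78 to 2.31 FPKM in Control mice. Under the filter, the receptor gene Ccr3 was at 0.127 to 0.35 FPKM in AOM/DSS and 0 to 0.084 FPKM in Control mice. Il5ra, another receptor gene under the filter, was at 0.194 to 0.715 and 0.0342 to 0.122 FPKM. The granule protein genes Epx and Ear6 were at or near 0 (mean at most 0.00883 FPKM for Epx, and 0 for Ear6, in these groups). The part of eosinophils in the Siglecf difference was not tested.

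The remaining genes of tuft cell identity and signaling were not called in AOM/DSS mice. Dclk1 was at 1.59 ± 0.382 FPKM in AOM/DSS and 1.35 ± 0.578 FPKM in Control mice (SD, n = 5 each), a log2 fold change of 0.16 (SE 0.19, limma adjusted p = 0.587). Trpm5, the cation channel of taste-like signaling, was at 1.11 ± 0.379 and 1.24 ± 0.877 FPKM (SD, n = 5 each; log2 fold change −0.03, SE 0.25, limma adjusted p = 0.957). Control mouse 41 was the highest Control mouse for Trpm5 (2.65 FPKM) and for Pou2f3 (0.409 FPKM), and mouse 50 the lowest (0.303 and 0.0225 FPKM). Without Control mice 17 and 50 the log2 fold change was 0.34 for Dclk1 (limma adjusted p = 0.29) and −0.30 for Trpm5 (limma adjusted p = 0.413).

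The Trpm5 sum needs care. Trpm5-206, a transcript of 726 bases, made up 51.8% of it, and 29.9% of its bases lie in exons of Tssc4 on the opposite strand. Tssc4 itself rose in AOM/DSS mice, from 7.98 ± 1.05 to 11.5 ± 2.25 FPKM (SD, n = 5 each; log2 fold change 0.47, SE 0.14, limma adjusted p = 0.0392). Trpm5-206 was at 0.777 FPKM in AOM/DSS and 0.58 FPKM in Control mice on average. The other Trpm5 transcripts summed to 0.331 ± 0.321 FPKM in AOM/DSS and 0.663 ± 0.784 FPKM in Control mice (SD, n = 5 each; exact permutation p = 0.508), so the sum held transcripts that stood in opposite directions. Without Trpm5-206, Trpm5 was under the filter in this comparison. The part of Tssc4 fragments in the sum was not tested.

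Pou2f3, the master regulator of the lineage, Gnat3, the taste G protein subunit gustducin, and Il25 did not pass the filter in AOM/DSS and Control mice. They were compared by exact two-sided permutation tests over mice, which are not adjusted, and 15 such tests were made over the 5 pairwise comparisons. Pou2f3 was at 0.126 ± 0.0467 FPKM in AOM/DSS and 0.188 ± 0.143 FPKM in Control mice (SD, n = 5 each; exact p = 0.46), which corresponds to 3 to 8 and 1 to 20.8 estimated fragments a mouse. Gnat3 was at 0.359 ± 0.227 and 0.233 ± 0.154 FPKM (SD, n = 5 each; exact p = 0.325). Pou2f3 depended on Control mice 17 and 50. Against the other 3 Control mice, at 0.178 to 0.409 FPKM with a mean of 0.267 FPKM, all 5 AOM/DSS mice were lower, at 0.0652 to 0.175 FPKM, with an exact p = 0.0179 that is the smallest possible for these numbers of mice and was not adjusted for the 30 tests made without these 2 mice. Gnat3 was at 0.33 FPKM in those 3 mice (exact permutation p = 0.946, n = 3).

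Il25 encodes IL-25, the cytokine by which tuft cells engage group 2 innate lymphoid cells. It was listed above 0 in 5 of the 10 mice that received no AOM/DSS, at 0.193 and 0.117 FPKM in Control mice 41 and 48 and at 0.116, 0.116 and 0.0613 FPKM in PZH mice 14, 27 and 53. It was listed at 0 in all 10 mice given AOM/DSS. These values stand for 1 to 4 estimated fragments, and a floor of 3 fragments corresponds to 0.145 to 0.184 FPKM depending on the mouse. For AOM/DSS against Control, the exact permutation p was 0.444 (n = 5 each). With only Control mice 41 and 48 above 0, this test could give no smaller p, so it cannot decide whether the level was lower. The 10 mice given AOM/DSS were not tested against the 10 that received none.

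No lipid mediator gene among the members was called between AOM/DSS and Control mice. Alox5ap encodes FLAP, the partner protein of 5-lipoxygenase in leukotriene synthesis. It was at 9.53, 4.97, 6.82, 7.28 and 6.26 FPKM in AOM/DSS mice 23, 30, 33, 44 and 52 and at 4.18 to 5.66 FPKM in Control mice. All AOM/DSS mice but mouse 30 lay above the Control mice, yet the log2 fold change of 0.37 (SE 0.16) did not pass the adjustment (limma unadjusted p = 0.0429, adjusted p = 0.125). Alox5, 5-lipoxygenase, was at 1.48 ± 0.428 FPKM in AOM/DSS and 1.66 ± 0.34 FPKM in Control mice (SD, n = 5 each; log2 fold change −0.11, SE 0.15, limma adjusted p = 0.637). Hpgds, a prostaglandin D2 synthase, was at 4.7 ± 1.2 and 4.86 ± 2.26 FPKM (SD, n = 5 each; log2 fold change 0.02, SE 0.26, limma adjusted p = 0.97). For Hpgds the Control mice 17 and 50 were the highest, at 6.84 and 7.7 FPKM, against 2.87 to 4.01 FPKM in the other 3. Without these 2 mice the log2 fold change was 0.40 (SE 0.20, limma adjusted p = 0.207).

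**Figure D3:**
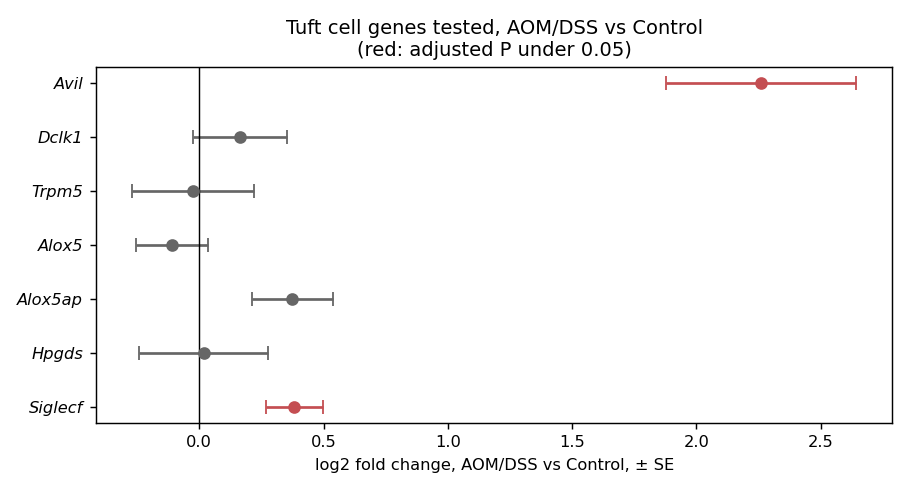
Log2 fold change of FPKM + 1 (x axis) with its standard error for the 7 tuft cell genes tested (y axis) between AOM/DSS and Control mice, 5 mice a group. Avil (2.26) and Siglecf (0.38), in red, had an adjusted P under 0.05, and the other 5 lay between −0.11 and 0.37.

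Other genes of the tuft cell program were looked at as lists of names. Of 10 chemosensory genes, 3 were tested in AOM/DSS and Control mice and 1 rose, Plcb2, the phospholipase of the taste cascade, from 1.01 ± 0.499 to 2.21 ± 0.475 FPKM (SD, n = 5 each). Gnb3 and Gng13, its G protein partners, were under the filter, with means of at most 0.0712 and 0.162 FPKM in these groups. Of the 26 tuft cell identity genes listed, 17 were tested, 5 rose and none fell. Over all genes tested, 16.4% rose and 7.23% fell, the shares to set beside both lists. The 17 identity genes had a median log2 fold change of 0.30, beside 0.09 over all genes. Among the largest rises were those of Cd300lf (0.341 ± 0.293 to 4.58 ± 1.18 FPKM, limma adjusted p = 3.73e-05), Cd24a (155 ± 18.9 to 345 ± 89 FPKM) and Nradd (3.58 ± 0.581 to 7.13 ± 2.11 FPKM; SD, n = 5 each). Cd300lf is also a gene of myeloid cells, and Cd24a is broadly expressed in crypt epithelium. Sh2d6, which marks tuft cells, was at 2.55 ± 0.641 against 1.27 ± 0.944 FPKM (SD, n = 5 each; limma adjusted p = 0.0569), and Sh2d7, another tuft cell gene, was under the filter at 0.426 against 0.456 FPKM.

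Around the members, genes of the eicosanoid pathway moved in both directions, with 5 higher and 2 lower of 17 tested, beside 16.4% higher and 7.23% lower over all genes. Alox12 rose from 0.909 ± 0.699 to 20.4 ± 9.37 FPKM (limma adjusted p = 3.86e-05) and Ptgs2, the inducible cyclooxygenase, from 1.75 ± 0.496 to 7.99 ± 5.14 FPKM (limma adjusted p = 0.00772). Hpgd, which degrades prostaglandins, fell from 90.7 ± 15.8 to 38.3 ± 8 FPKM (limma adjusted p = 4.24e-04; SD, n = 5 each). Of the type 2 circuit, 9 of 15 genes tested rose and none fell, led by Il1rl1, the IL-33 receptor (1.16 ± 0.484 to 29.7 ± 3.34 FPKM, limma adjusted p = 5.99e-07), and Arg1. Il4ra, a receptor chain for IL-4 and IL-13, went from 8.3 ± 1.03 to 29.6 ± 4.15 FPKM (SD, n = 5 each; limma adjusted p = 7.29e-06). The cytokine genes Il5 and Il13, which answer IL-25, were at or near 0, with means of at most 0.0485 FPKM in both groups, and Il17rb, which encodes the IL-25 receptor, was at 1.31 ± 0.468 against 1.35 ± 0.237 FPKM (SD, n = 5 each; limma adjusted p = 0.879).

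Markers of other cell types moved in the same comparison, in which 16.4% of all genes tested rose and 7.23% fell. The 12 mast cell markers summed to 68.7 to 300 FPKM in AOM/DSS and 11.9 to 19.4 FPKM in Control mice, with 9 of 10 tested higher, and Mcpt1, a mucosal mast cell protease, rose from 0.836 ± 0.163 to 77 ± 54.7 FPKM (SD, n = 5 each; limma adjusted p = 2.94e-05). Of the 9, Fcer1a, Hdc and Mcpt2 passed the filter through the AOM/DSS mice alone, so their rise was favored by the filter, as was that of Gata3 in the type 2 circuit and of Cxcr2 among the neutrophil markers. Tpsab1 was at 0 in all Control mice. Neutrophil markers rose in 5 of 6 genes tested and macrophage and monocyte markers in 5 of 12, while smooth muscle markers fell in 6 of 6 (summed 996 to 1730 against 2240 to 5170 FPKM) and colonocyte markers in 5 of 8. Markers of enteric neurons and glia fell in 5 of 10 and rose in 1. After subtraction of group means, the log2 value of Avil over the 20 mice had a Pearson correlation of 0.718 with the mean of the mast cell markers, 0.611 with the tuft cell identity list and −0.541 with smooth muscle. These are descriptions over mice that share libraries and groups, and the part of any of these cells in the Avil values was not tested.

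**Figure D4:**
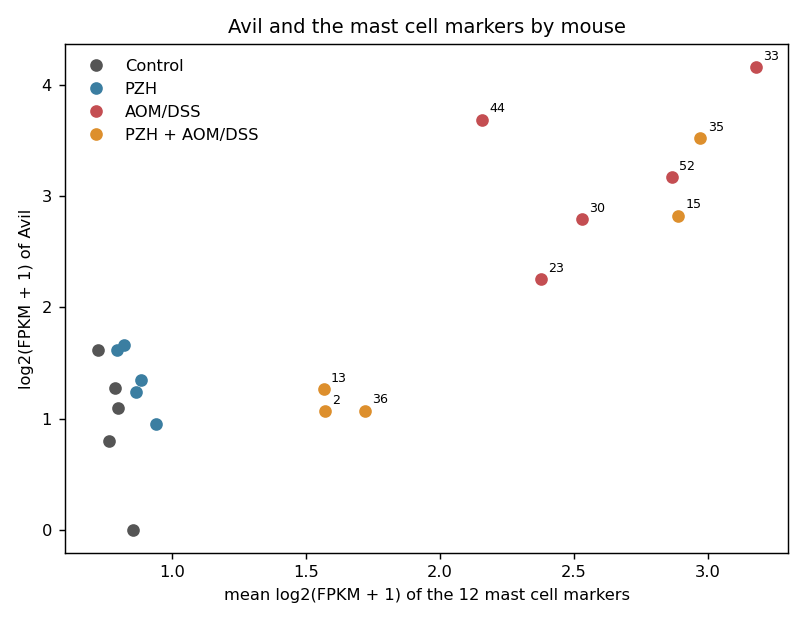
Log2(FPKM + 1) of Avil (y axis) against the mean log2(FPKM + 1) of 12 mast cell markers (x axis) in each mouse, colored by group, with mouse numbers for the mice given AOM/DSS. PZH + AOM/DSS mice 15 and 35 lay among the AOM/DSS mice on both axes, and mice 2, 13 and 36 between them and the Control mice on the x axis.

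PZH + AOM/DSS mice were next set against AOM/DSS mice to see whether PZH altered the model. No member of the 7 tested was called, and 1 had an unadjusted P under 0.05, as did 11.7% of all genes tested. Over all genes tested, 0.00629% were called in either direction, that is 1 of 15888, so calls were rare in this comparison. Avil was at 1.09, 1.4, 6.09, 10.5 and 1.1 FPKM in PZH + AOM/DSS mice 2, 13, 15, 35 and 36. Mice 2, 13 and 36 lay within the Control range and below every AOM/DSS mouse, while mice 15 and 35 lay within the AOM/DSS range. The mean was 4.04 ± 4.21 FPKM (SD, n = 5), and the log2 fold change against AOM/DSS was −1.27 (SE 0.54, limma unadjusted p = 0.0395, adjusted p = 0.406). Avil met the rule of a fold change above 2 with an unadjusted P under 0.05, which 2.4% of all genes tested met. Leaving out mouse 35 gave −1.66 (adjusted p = 0.0713), and without this mouse the number of genes called over the whole table went from 1 to 808. The same mice 2, 13 and 36 had the lowest mast cell marker sums of the mice given AOM/DSS, at 54.5, 44.1 and 58.7 FPKM, and the part of these cells in the Avil values was not tested.

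The mean of Avil in PZH + AOM/DSS mice was also set against the groups without AOM/DSS. Its log2 fold change was 0.99 (SE 0.51, limma adjusted p = 0.29) between PZH + AOM/DSS and Control mice and 0.59 (SE 0.47, limma adjusted p = 0.507) between PZH + AOM/DSS and PZH mice. The higher mean came from mice 15 and 35, since the group's median of 1.4 FPKM lay below the 1.54 FPKM of PZH mice, and without mouse 35 these fold changes were 0.60 and 0.19, and without mouse 15 the second was 0.37. The comparisons with Control share the same 5 mice. The interaction term, fitted to all 20 mice as the difference between the PZH effects with and without AOM/DSS, was −1.67 (SE 0.64, limma unadjusted p = 0.017, adjusted p = 0.398). It ranged from −3.68 with limma voom on estimated fragments to −0.62 with the highest transcript only, and was called under neither. No member of the 8 tested was called by the interaction, where 0.0118% of all genes were called.

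No other member tested had an unadjusted P under 0.05 when PZH + AOM/DSS mice were set against AOM/DSS mice. Dclk1 was at 1.89 ± 0.717 against 1.59 ± 0.382 FPKM, Trpm5 at 1.57 ± 0.399 against 1.11 ± 0.379 FPKM and Siglecf at 0.697 ± 0.161 against 0.666 ± 0.153 FPKM (SD, n = 5 each). Pou2f3 was at 0.124, 0.324, 0.315, 0.132 and 0.469 FPKM in PZH + AOM/DSS mice 2, 13, 15, 35 and 36 and at 0.0652 to 0.175 FPKM in AOM/DSS mice. Its 3 higher mice lay above all AOM/DSS mice and the other 2 among them (exact permutation p = 0.0873, n = 5 each). Alox5ap was at 0.618 FPKM in mouse 2 and at 5.01 to 6.67 FPKM in the other 4 mice, so its group mean of 4.74 ± 2.4 FPKM (SD, n = 5) rests on that mouse.

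No member of 7 was called between PZH + AOM/DSS and Control mice, and no member of 8 between PZH + AOM/DSS and PZH mice. In each of these comparisons 2.42% of all genes tested were called. Siglecf came closest, at 0.844, 0.484, 0.807, 0.565 and 0.783 FPKM in PZH + AOM/DSS mice 2, 13, 15, 35 and 36, of which all but mouse 13 lay above the Control mice. Its log2 fold change against Control was 0.41 (SE 0.12, limma unadjusted p = 0.00553, adjusted p = 0.0911). With all 20 mice in one model the adjusted p was 0.0226, and without Control mice 17 and 50 it was 0.316.

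In mice without AOM/DSS, PZH left the 6 members tested uncalled, and 0.00645% of all genes tested were called, that is 1 of 15506. Of the 4 members under the filter, Gnat3, Pou2f3 and Siglecf stood higher in PZH mice by exact permutation tests without adjustment, and Il25 did not, at 0.0585 against 0.0621 FPKM (exact permutation p = 0.841, n = 5 each). The share of all genes that reach such unadjusted p values between PZH and Control mice was not counted. These tests therefore do not show a rise particular to the members. Gnat3 was at 0.313, 1.74, 0.508, 0.743 and 1.28 FPKM in PZH mice 8, 14, 27, 46 and 53 and at 0.0862 to 0.4 FPKM in Control mice. All PZH mice but mouse 8 lay above the Control mice (means 0.918 ± 0.587 and 0.233 ± 0.154 FPKM, SD, exact p = 0.0238, n = 5 each). Pou2f3 was at 0.25, 0.46, 0.265, 0.382 and 0.675 FPKM in the same PZH mice and at 0.0225 to 0.409 FPKM in Control mice (exact permutation p = 0.0476, n = 5 each). Siglecf was at 0.541 ± 0.168 against 0.283 ± 0.18 FPKM (SD, n = 5 each; exact permutation p = 0.0397). PZH mice 14 and 53 were the highest 2 of their group for Gnat3 and Pou2f3.

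These differences were measured on few fragments. Estimated fragments of Gnat3 were 7 to 38.5 in PZH and 2 to 10.2 in Control mice. Against the 3 other Control mice, the exact permutation p was 0.143 for Gnat3 (mean 0.33 FPKM, n = 3), 0.25 for Pou2f3 (0.267 FPKM, n = 3) and 0.161 for Siglecf (0.358 FPKM, n = 3), where the smallest p possible was 0.0179. The PZH means were still higher than those of these 3 mice, and fewer mice also give the test less power. Trpm5 (1.34 ± 0.788 against 1.24 ± 0.877 FPKM), Dclk1 (1.85 ± 0.998 against 1.35 ± 0.578 FPKM) and Avil (1.61 ± 0.514 against 1.07 ± 0.768 FPKM; SD, n = 5 each) overlapped between PZH and Control mice. The log2 fold change of Avil was 0.41 (SE 0.27, limma adjusted p = 0.673). Alox5ap was lower with PZH, at 4.03, 4.17, 2.65, 2.9 and 4.75 FPKM in PZH mice 8, 14, 27, 46 and 53 against at least 4.18 FPKM in Control mice. Its log2 fold change was −0.39 (SE 0.16, limma unadjusted p = 0.0329, adjusted p = 0.545), and all PZH mice but mouse 53 lay below the Control mice. Of the tuft cell identity list, 17 genes were tested in this comparison and 0 were called, and among the chemosensory genes 0 of 4.

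Across the 20 mice the members did not move as a single block. After subtraction of group means, Gnat3 had a Pearson correlation of 0.723 with Alox5, 0.626 with Pou2f3 and 0.524 with Siglecf, and Trpm5 of 0.597 with Il25, while Avil had 0.036 with Pou2f3 and 0.059 with Gnat3. The mean of Trpm5, Pou2f3 and Avil was most like Gm18194 (r = 0.832), Rpp38 (0.82), Spsb4 (0.817), Nr4a2 (0.813), Ganab (0.798), Trim37 (0.783), Dmp1 (0.779), Tmem132e (0.759), Chst2 (0.756) and Podnl1 (0.752) among 16928 genes. Of the tuft cell lists, Cd300lf ranked 31, Sh2d6 63 and Plcb2 114 by this measure, and Lrmp (r = −0.582) and Itpr3 (−0.519) were near the other end. These correlations over 20 mice describe libraries that share tissue makeup and depth, with members at low values. For Trpm5 they rest on the sum over all its transcripts, with the limits given above.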

How the data were processed

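RNA-seq of the colon of 20 mice (1 library each) was used. The authors filtered reads, aligned them to mm10 with HISAT2 and deposited FPKM per transcript from StringTie. No counts were in these files, so the main test was not a count test, and the labels' processing notes name limma. Among the alternatives, limma voom was run on fragments estimated from FPKM. Depth limits precision at low values. Gene values are summed FPKM of 96032 transcripts that GENCODE M21 lists. Fragments given to the 22252 assembled transcripts are missing from the sums. Genes reaching 0.5 FPKM in 5 or more of the 10 mice compared were tested on log2(FPKM + 1) by limma 3.58.1 in R 4.3.3 with an intensity trend and Benjamini-Hochberg adjustment over all genes, which was tested on simulated data. The interaction used all 20 mice. Members under the filter got exact permutation tests. Estimated fragments are FPKM times transcript length divided by the smallest step of a mouse, and 48.2 to 53.2% of low values fell on whole steps, within 0.01, so absolute depth is uncertain. The members and lists were chosen with earlier results of these data known. All 10 members are named, with the first genes of a list and up to 4 largest changes each way in AOM/DSS against Control. One gene that this rule names is not reported here. Genes of other cell type lists are mostly given as counts. The 7 listed eosinophil genes, some mast cell genes, Cxcr2, Epcam and Krt8 were named outside this rule. Whether mice shared a litter or batch is not given in the sources used here. Alternatives were a pseudocount of 0.1, other filters, scalings and models, and leaving out mice. Leaving out transcripts that overlap other genes, leaving out Control mice 17 and 50, and epithelium scaling without Epcam and Krt8 were chosen after seeing the data.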

Additional observations from a re-analysis of the deposited data

Results flagged for a closer look

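In a group of 5 mice, the highest or lowest value was singled out when its gap to the next mouse took a share of the range of log2 values above Dixon's critical value for 5 samples. Of 38 sets of group values tested, 2 were, where chance gives about 1.9. Dclk1 was at 3.14 FPKM in PZH + AOM/DSS mouse 15, above 1.42 to 1.76 FPKM in the other 4 mice. Alox5ap was at 0.618 FPKM in PZH + AOM/DSS mouse 2, below 5.01 to 6.67 FPKM in the others.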

How the results depend on the processing

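The call of Avil in AOM/DSS against Control held under every alternative run, with a log2 fold change of 1.77 to 3.90. The count of members called in this comparison, 2, became 1 under the 1 FPKM filter, which leaves Siglecf untested, under median-of-ratios scaling, under scaling to the epithelium list, with the highest transcript of each gene only and without Control mice 17 and 50, and was 1 to 2 when 1 mouse was left out. In PZH + AOM/DSS against Control the count went from 0 to 1 with all 20 mice in one model. For Siglecf the cause was not tested. In AOM/DSS against Control the direction turned for Dclk1 (−0.033 with epithelium scaling), Trpm5 (0.048 with a pseudocount of 0.1, 0.18 with the highest transcript, 0.12 with epithelium scaling without Epcam and Krt8), Alox5 (0.051 with that scaling) and Hpgds (−0.075 with median-of-ratios, −0.23 with epithelium scaling), none of them called. Leaving out 1 mouse moved Trpm5 between −0.20 and 0.17 and Hpgds between −0.11 and 0.18. Avil in PZH against Control was −0.26 with the highest transcript only. Alox5ap in AOM/DSS against Control was called with epithelium scaling without Epcam and Krt8 (0.60, adjusted p = 0.0336). Scaling to the epithelium list rests on Epcam and Krt8 values at or near 0 in some mice, moved the median over all genes from 0.09 to −0.13 and the genes called from 3739 to 862. Over all genes, calls in PZH + AOM/DSS against AOM/DSS went from 1 to 89 with all 20 mice in one model, to 71 with epithelium scaling and to 3 with the highest transcript, against Control from 378 to between 29 (without Control mice 17 and 50) and 1503 (all 20 mice), against PZH from 378 to between 54 (without PZH mouse 27) and 1002 (all 20 mice), for the interaction from 2 to between 0 and 476 (without PZH + AOM/DSS mouse 35), and in PZH against Control from 1 to 0 to 2. The other 29 fold changes of members were called under none of 653 alternative values and turned direction in 66. No paired analysis was possible because each mouse number occurs in 1 group only. Depth limits the genes under the filter, chiefly Il25 and Pou2f3.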
